A study of Mus musculus with 3 samples.

Results

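Genes of immature neurons were described in single nuclei of the adult mouse olfactory bulb (OB), to ask how the clusters of nuclei order by the maturity of adult-born neurons. The set was chosen by name and holds 6 of the 31055 genes in the count tables, namely Dcx, Sox11, Sox4, Igfbpl1, Cd24a and Tubb3. The first 5 had counts of unique molecular identifiers (UMIs), which number the captured RNA molecules, and Tubb3 had none. The nuclei came from 3 adult male C57Bl/6 mice of 1 group, each with a library of its own, so that all comparisons were made between clusters, with the mice as replicates. Each mouse had received retroAAV-CAG-H2B-GFP, a retrogradely transported virus, at several places of the piriform cortex and the anterior olfactory nucleus, and nuclei positive for GFP were sorted from the OB. The virus was placed to label neurons that project to these areas, so that the sort was not neutral for cell type, and the shares of clusters are not those of the OB. The CAG promoter itself is active in most cell types. By which route the inhibitory neurons came to carry the virus was not tested. Nuclei hold little of the RNA of the cytoplasm, and fewer cells of a stage within a cluster and less RNA per cell cannot be told apart in summed counts.

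The OB goes on receiving inhibitory neurons in adult life. Neuroblasts born in the subventricular zone migrate along the rostral migratory stream and mature into granule and periglomerular cells, whereas mitral and tufted cells, the projection neurons, are born before birth. Dcx encodes doublecortin, a microtubule-binding protein of migrating neuroblasts. Sox4 and Sox11 are SoxC transcription factors of newly postmitotic neurons. Igfbpl1 encodes a secreted protein related to the insulin-like growth factor binding proteins, and Cd24a a surface glycoprotein by which neuroblasts can be sorted. Tubb3 encodes the neuronal class of beta-tubulin.

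In GRCm38, Dcx (ENSMUSG00000031285) lies at X:143855842-143933311 on the minus strand, and 69.8% of all nuclei had at least 1 of its 95035 UMIs. Sox11 (ENSMUSG00000063632), at 12:27334264-27342574 on the minus strand, had 11104 UMIs in 18.7% of nuclei. Sox4 (ENSMUSG00000076431), at 13:28948919-28953713 on the minus strand, had 36241 UMIs in 47.6% of nuclei. It overlaps Gm26735, a lincRNA of the opposite strand with 12726 UMIs. Igfbpl1 (ENSMUSG00000035551), at 4:45809468-45826923 on the minus strand, had 5369 UMIs in 7.996% of nuclei. Cd24a (ENSMUSG00000047139), at 10:43578284-43584265 on the plus strand, had 1430 UMIs in 2.96% of nuclei and is the member measured with the least precision. All 6 are annotated as protein coding.

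The bases before the annotated start are shown for the 3 measured members with an entry in the promoter table of RefSeq (GRCm38.p6), because these genes differ in where they peak among the clusters. 4 of the 6 members had an entry. Each run is written 5′ to 3′ on the minus strand, and capitals mark CCAAT, the letters of the CCAAT box, read on either strand. The runs lie at X:143933312-143933469 for Dcx, 12:27342719-27342968 for Sox11 and 13:28953714-28953949 for Sox4. Those of Dcx and Sox4 adjoin the gene start given above, whereas that of Sox11 ends upstream of it, at the start in RefSeq.
Dcx: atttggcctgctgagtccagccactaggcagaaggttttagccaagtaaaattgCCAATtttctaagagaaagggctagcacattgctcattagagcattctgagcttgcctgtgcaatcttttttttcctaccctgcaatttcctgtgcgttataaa
Sox11: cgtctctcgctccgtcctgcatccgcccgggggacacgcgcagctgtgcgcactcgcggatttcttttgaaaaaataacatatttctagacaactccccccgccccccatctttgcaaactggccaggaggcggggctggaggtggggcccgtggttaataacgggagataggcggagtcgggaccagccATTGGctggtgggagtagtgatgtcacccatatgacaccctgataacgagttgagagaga
Sox4: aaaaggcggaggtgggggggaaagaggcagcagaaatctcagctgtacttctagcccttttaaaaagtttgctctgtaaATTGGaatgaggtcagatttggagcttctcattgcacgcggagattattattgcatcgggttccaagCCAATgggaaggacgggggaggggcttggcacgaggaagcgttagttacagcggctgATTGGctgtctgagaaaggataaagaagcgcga
CCAAT was found once before Dcx, once before Sox11 and at 3 places before Sox4. Windows of the same length and place held it in 21.2%, 33.8% and 32.7% of 32851 promoters. TAATTA, the core letters bound by many homeodomain proteins, and AACAAT, letters bound by Sox proteins, were searched on both strands and had 0 matches in the 3 runs. They occurred in 3.42% to 4.84% and in 6.54% to 9.42% of promoters over the same windows. A match is a description of the sequence and not a binding site.

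Mice 1, 2 and 3 gave 5845, 21105 and 4753 retained nuclei with 58526996, 213891496 and 62929479 UMIs. The median nucleus held 7940, 8420 and 10568 UMIs. Mice 1 and 2 shared 39 cell barcodes, mice 1 and 3 shared 8 and mice 2 and 3 shared 35. The deposited annotation gives each nucleus 1 of 22 cluster numbers and no name, so that clusters were named from markers. 10 clusters (0, 1, 3, 6, 7, 8, 10, 12, 15 and 17) were inhibitory-neuron-like and held 67.0% of nuclei, and 5 clusters (2, 4, 5, 13 and 14) were projection-neuron-like and held 23.7%. Clusters 9, 11, 16, 19 and 20 were astrocyte-like, ensheathing-glia-like, oligodendrocyte-like, oligodendrocyte-precursor-like (OPC-like) and microglia-like. Clusters 18 and 21 stayed unnamed. The members gave no cluster its name.

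Tubb3 (ENSMUSG00000062380; 8:123411424-123422015, plus strand) could not be described, since none of the 31703 nuclei held a UMI of it. It lies inside Gm20388, a gene model on the same strand at 8:119910841-124345722, which had 290236 UMIs in 97.7% of nuclei. All 59 genes that lie inside Gm20388 on its strand had no UMI, 36 of them protein coding. All 49 genes inside it on the minus strand had UMIs, 35 of them protein coding. Of all 21897 protein-coding genes in the tables, 10.5% had no UMI. Reads of Tubb3 and of Gm20388 cannot be told apart in these counts, so no limit on the level of Tubb3 follows from its 0.

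**Figure D1:**
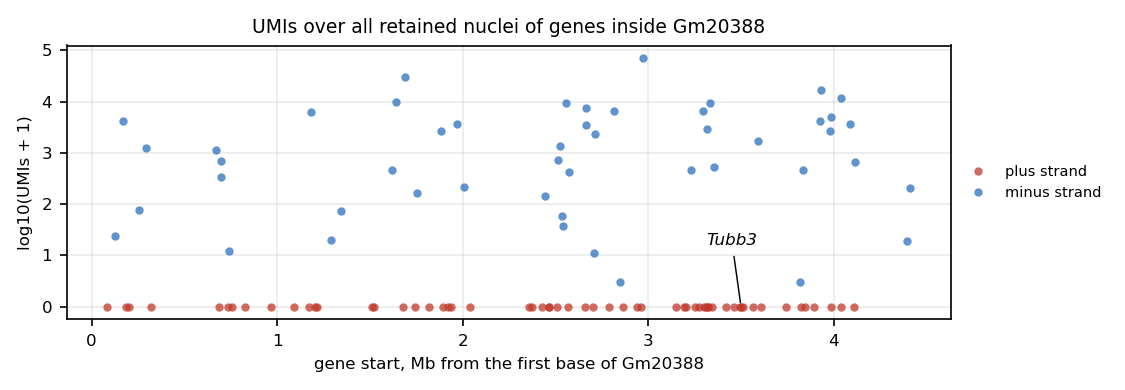
UMIs over all retained nuclei, as log10(UMIs + 1), of the genes inside Gm20388, against the distance of the gene start from the first base of Gm20388 in Mb. All 59 plus-strand genes (red), with Tubb3 marked, sit at 0, and the 49 minus-strand genes (blue) lie above it.

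The first comparison asked which classes of cells carry the 5 measured genes. Dcx, Sox11, Igfbpl1 and Cd24a were higher in inhibitory than in projection clusters, and Sox4 was not distinguished between them. The UMIs of the 10 inhibitory clusters, scaled to counts per 1e6 UMIs of a cluster and mouse (CPM), ran for Dcx from 105 through a median of 376 to 729 CPM over 30 libraries. Projection clusters ran from 59.8 through 94.5 to 149 CPM over 15 libraries. The ranges overlapped only at the low end of the inhibitory clusters. The mean of the inhibitory clusters exceeded that of the projection clusters by 1.64 on the log2 scale for Dcx (SE 0.17, adjusted p = 6.52e-13, edgeR quasi-likelihood test over 17028 genes). The log2 difference was 2.39 for Igfbpl1 (SE 0.19, adjusted p = 8.64e-17), 1.69 for Sox11 (SE 0.15, adjusted p = 1.88e-14) and 1.46 for Cd24a (SE 0.33, adjusted p = 0.000157), all by edgeR. Sox4 differed by -0.096 (SE 0.11, adjusted p = 0.462, edgeR), and its sign turned with library size as the only scaling (0.028) and with nuclei summed per class (0.26). Past an adjusted p of 0.05 and a log2 difference of 1, 4 of the 5 members were thus called higher in the inhibitory clusters, against 7.09% of all genes tested, and 12.7% of all genes were called lower. Without mouse 2 the call for Cd24a was lost (1.79, adjusted p = 1, edgeR), and inhibitory cluster 17 then held no UMI of it.

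Dcx was the 1 member called between neuronal and glial clusters, close to the threshold. The mean of the 15 neuronal clusters exceeded that of the 5 glial clusters by 1.14 for Dcx on the log2 scale (SE 0.17, adjusted p = 7.46e-08, edgeR). That made 1 of 5 members, against 7.58% of all genes called higher and 9.38% called lower. Library size as the only scaling gave 0.95, and leaving out mouse 1 or mouse 3 gave 0.99 in both cases, which is below the threshold of 1. Igfbpl1 (0.79), Sox11 (0.60) and Sox4 (0.31) had adjusted p of 0.0296, 0.0126 and 0.0242 in edgeR and stayed below that threshold too. Without mouse 2 the count was 3, with Sox11 (2.92, adjusted p = 8.32e-06, edgeR) and Igfbpl1 (2.42, adjusted p = 0.0215, edgeR) also called, while glial cluster 16 then held no UMI of Sox11 and glial cluster 20 none of Igfbpl1. Cd24a differed by -0.033 (SE 0.36, adjusted p = 1, edgeR). In the OPC-like cluster Sox4 reached 464, 223 and 277 CPM in mice 1, 2 and 3.

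**Figure D2:**
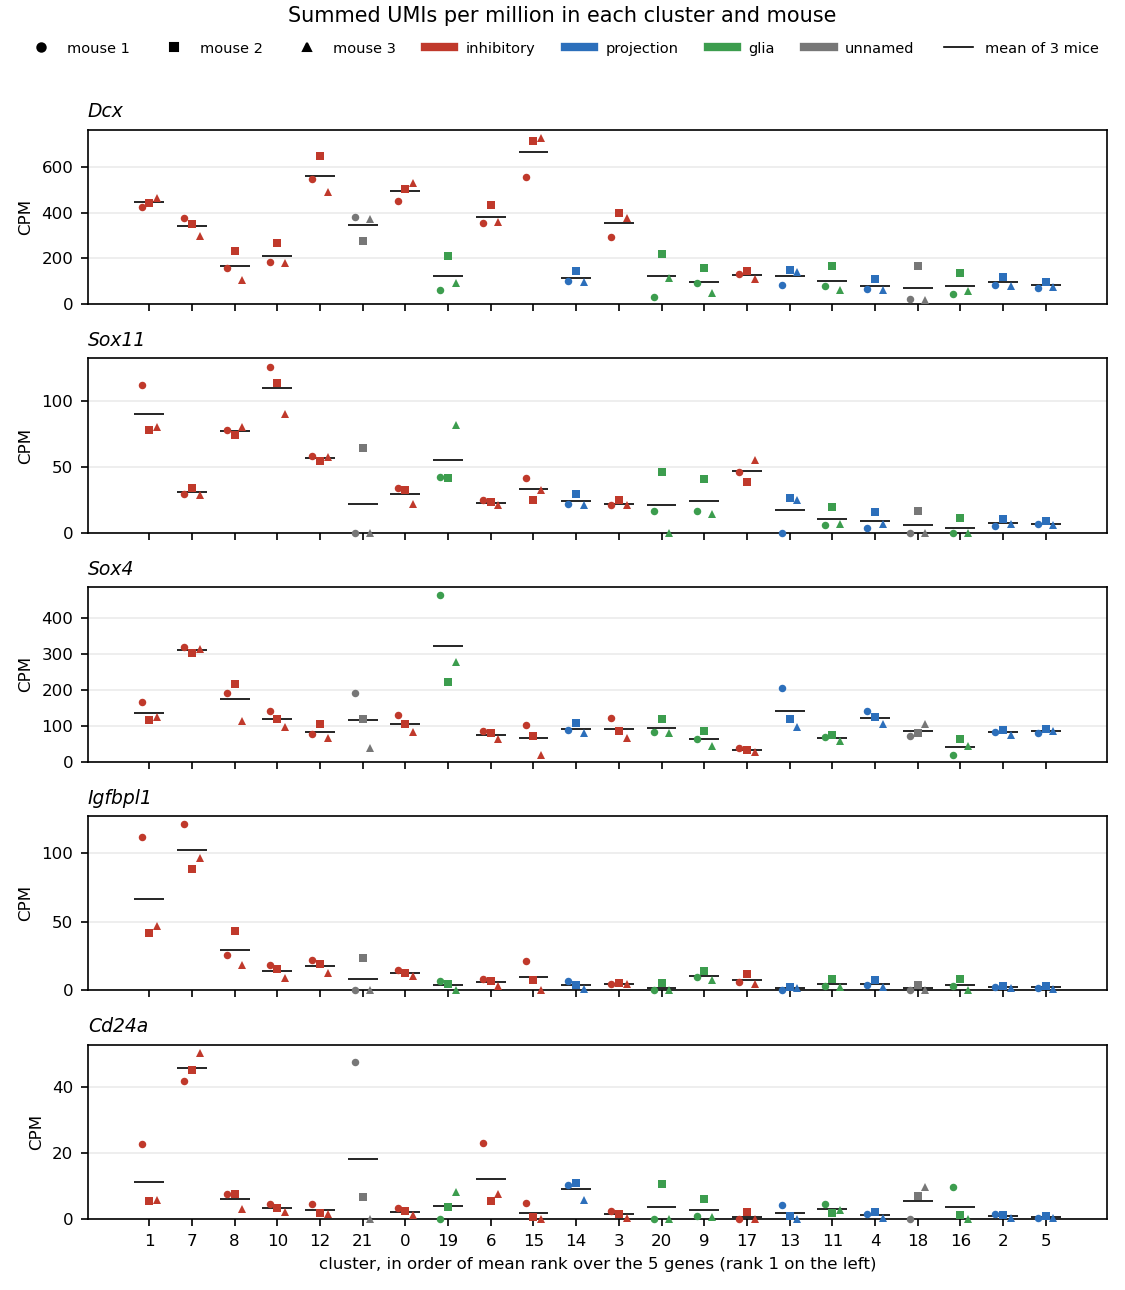
CPM of the 5 measured members (1 panel each) in the 22 clusters, ordered by mean rank over the members, with 1 symbol per mouse, a bar at the mean of 3 mice and colours for the class of the cluster. Dcx is spread over most inhibitory clusters (red), whereas Igfbpl1 and Cd24a are concentrated in few, with cluster 7 highest for both.

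Between clusters of any kind all 5 members differed at an adjusted p under 0.05, as did 85.3% of all genes. Between the 10 inhibitory clusters alone all 5 differed too, against 50.8% of all genes. The adjusted p there was 2.00e-17 for Igfbpl1, 4.66e-12 for Sox4, 8.11e-12 for Cd24a, 2.06e-09 for Sox11 and 6.81e-06 for Dcx (edgeR). Each cluster was also set against the mean of all others. Of the 110 pairs of member and cluster, 20 were called higher (18.2%) and 17 lower (15.5%), against 9.21% and 4.82% over all genes and clusters. The clusters had been formed on the same counts, so that these p-values describe the clusters and are no evidence that they exist. Without mouse 2 the pairs called lower numbered 8, and Sox11, Igfbpl1 and Cd24a then each had 3 clusters without a UMI.

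Dcx, the microtubule protein of migrating neurons, was high in most inhibitory clusters and peaked in clusters 15 and 12. Cluster 15 had 558, 716 and 729 CPM in mice 1, 2 and 3 (667 ± 95.3, SD, n = 3), and cluster 12 had 546, 647 and 490 CPM (561 ± 79.4). Clusters 0 and 1 followed at 495 ± 40.5 and 445 ± 19.3 CPM (SD, n = 3 each). The mice of these 4 clusters overlapped with those of the next in the order. The 1 gap between neighbours in the order lay after cluster 7, which had 378, 353 and 298 CPM, whereas cluster 10 had 185, 269 and 178 CPM. Dcx was called higher in clusters 15 (log2 difference 1.90), 12 (1.69), 0 (1.58), 1 (1.43), 3 (1.14) and 6 (1.09), and lower in clusters 18 (-1.37), 4 (-1.19) and 16 (-1.07). The calls in cluster 3, at 0.97 with library size alone and 0.998 without mouse 3, and in clusters 16 and 18, without mouse 1 or mouse 3, did not hold.

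The lowest levels of Dcx were not 0. The microglia-like cluster, which should lack the gene, had 32.5, 217 and 115 CPM, and the oligodendrocyte-like cluster 44.7, 136 and 57.2 CPM. Mouse 2 was the highest of the mice in both. The 15 libraries of projection clusters, at 59.8 to 149 CPM, fell within the range of the microglia-like cluster, as did inhibitory cluster 17 (130, 144 and 108 CPM) and mice 1 and 3 of inhibitory cluster 8 (156, 234 and 105 CPM). Pooled over mice, Dcx in these whole clusters was thus not distinguished from the level found in cells that should lack it. The low end of the microglia-like range rested on 2 UMIs in mouse 1. Mouse by mouse, clusters 8, 13, 14 and 17 lay above the oligodendrocyte-like cluster in all 3 mice, and clusters 2, 4 and 5 in mice 1 and 3 alone. None of these clusters lay above the microglia-like cluster of the same mouse in all 3 mice. The microglia-like cluster had 16.2, 46.2 and 0 CPM of Sox11 and 81.2, 117 and 79.7 CPM of Sox4, against which the levels of those genes are to be read. The deposited subclusters of these nuclei spread more widely. Subcluster 2, with 94, 772 and 77 nuclei, had 173, 208 and 165 CPM of Dcx in mice 1, 2 and 3, above the microglia-like cluster in mice 1 and 3 and not in mouse 2. Subcluster 3, with 225, 552 and 106 nuclei, had 29.1, 39.2 and 25.8 CPM. Inhibitory markers summed to 1894, 2131 and 1652 CPM in subcluster 2 and projection markers to 717, 612 and 668 CPM, so that the projection clusters hold nuclei whose markers go against their class. Subcluster 9, with 9, 72 and 8 nuclei, went the same way, at 1679, 2221 and 1130 against 807, 597 and 692 CPM. Its Dcx stood at 99.3, 231 and 130 CPM, and it was not taken out below. Subcluster 2 had 6.03%, 17.7% and 4.85% of the nuclei of the projection clusters and 20.2%, 41.2% and 12.4% of their Dcx UMIs. For Igfbpl1 it had 12 of 69, 173 of 308 and 9 of 50 UMIs. Without it, a choice made after seeing the data, the projection nuclei stood at 66.7, 89.8 and 80.3 CPM of Dcx against 76.1, 117 and 85.8 CPM with it, and at 2.39, 2.49 and 1.37 against 2.64, 4.36 and 1.57 CPM of Igfbpl1.

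Sox11 had another order, with clusters 10, 1 and 8 at the top. Cluster 10 had 126, 114 and 90.5 CPM in mice 1, 2 and 3, cluster 1 had 113, 78.5 and 80.7 CPM and cluster 8 had 78.0, 74.4 and 80.1 CPM. Cluster 1 overlapped with both others, the mice of cluster 10 lay above those of cluster 8, and all 3 clusters lay apart from cluster 12, at 58.2, 54.3 and 57.4 CPM. The OPC-like cluster followed at 42.2, 41.6 and 81.5 CPM. Sox11 was called higher in clusters 10 (log2 difference 2.21), 1 (1.95), 8 (1.59) and 12 (1.15). In projection clusters 2, 4 and 5 no library exceeded 16.0 CPM, and Sox11 was called lower there (-1.67, -1.42 and -1.75), as in clusters 16 (-1.73) and 18 (-1.70). The calls in clusters 16 and 18 did not hold without mouse 1. Cluster 15, the highest for Dcx, had 41.5, 24.8 and 32.4 CPM of Sox11.

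Sox4, of the same SoxC family as Sox11, was not confined to inhibitory neurons. The OPC-like cluster had the highest mean (321 ± 127 CPM, SD, n = 3), followed by cluster 7 with 320, 303 and 314 CPM (312 ± 8.53). The mice of these clusters overlapped, and cluster 7 had the highest mean without mouse 1, in nuclei with at least 1500 genes and after thinning. Cluster 8, at 191, 216 and 113 CPM, lay apart from cluster 7. Projection clusters 13 (205, 119 and 97.0 CPM) and 4 (140, 124 and 104 CPM) overlapped with cluster 1 (167, 117 and 124 CPM). Cluster 17 was the lowest of all, with 36.5, 33.3 and 26.5 CPM. Sox4 was called higher in clusters 7 (log2 difference 1.67, SE 0.16) and 19 (1.61, SE 0.19), and lower in clusters 17 (-1.59, SE 0.27) and 16 (-1.10, SE 0.28), the last not without mouse 1.

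Igfbpl1 was highest in clusters 7 and 1. Cluster 7 had 121, 88.8 and 96.6 CPM in mice 1, 2 and 3, and cluster 1 had 112, 41.6 and 46.8 CPM. Cluster 1 thus varied by a factor of 2.70 between mice, with mouse 1 the highest. Cluster 8 followed at 25.8, 43.0 and 18.6 CPM, cluster 12 at 22.4, 18.9 and 12.4 CPM, cluster 10 at 18.4, 15.3 and 8.83 CPM and cluster 0 at 14.5, 12.8 and 10.6 CPM. No projection library exceeded 7.66 CPM, and the microglia-like cluster had 0, 5.33 and 0 CPM. The astrocyte-like cluster had 9.46, 13.8 and 7.55 CPM, and its mice overlapped with those of clusters 12, 10 and 0. Neighbours in the order overlapped in each of the 21 pairs. Igfbpl1 was called higher in clusters 7 (log2 difference 3.67, SE 0.21), 1 (3.21, SE 0.20), 8 (1.87, SE 0.24) and 12 (1.204, SE 0.33). It was called lower in projection clusters 13 (-1.94), 5 (-1.67), 2 (-1.59) and 14 (-1.25). The call in cluster 12 did not hold without mouse 1 (adjusted p = 0.0635, edgeR), nor that in cluster 14 with any 1 of the mice left out.

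Cd24a, the surface glycoprotein, was a gene of cluster 7 in all mice, at 41.6, 44.9 and 50.1 CPM. Clusters 6 and 1 came next among the named clusters, with mouse 1 far above the other mice in both. Cluster 6 had 22.9, 5.35 and 7.64 CPM, and cluster 1 had 22.6, 5.54 and 5.87 CPM. Projection cluster 14 had 10.4, 10.8 and 5.64 CPM, and the other projection libraries did not exceed 4.26 CPM. Cd24a was called higher in clusters 7 (log2 difference 3.90, SE 0.31), 1 (1.92, SE 0.34), 6 (1.88, SE 0.37) and 14 (1.63, SE 0.46). Without mouse 1 the call in cluster 6 was lost (1.202, adjusted p = 0.0825, edgeR), and without mouse 2 that in cluster 14 (2.11, adjusted p = 0.0706, edgeR). It was called lower in projection clusters 13 (-2.39), 5 (-2.31) and 2 (-1.41), calls that all were lost without mouse 2.

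Over the ranks of the 5 members, clusters 1, 7 and 8 led. The mean rank, where 1 is the highest of 22 clusters, was 3.4 for cluster 1, 4 for cluster 7 and 5 for cluster 8. Clusters 10 (6.6), 12 (7.6), 21 (8) and 0 (8.4) followed. The OPC-like cluster was next at 8.6, ahead of inhibitory clusters 6 (9.6), 15 (10.2), 3 (12.2) and 17 (14). The microglia-like (13.6) and astrocyte-like (13.8) clusters also stood ahead of cluster 17, so that glia ranked among the inhibitory neurons. The place of cluster 21 differed between mice, with mean ranks of 10.4, 5.6 and 17.1 in mice 1, 2 and 3, and its 47.5 CPM of Cd24a in mouse 1 came from 1 UMI in 9 nuclei. Projection clusters 2 (18.2) and 5 (18.8) came last. Clusters 1, 7 and 8 also held the first 3 places in each mouse taken alone and under each alternative run for the order. The lead of each rested on different members. Cluster 1 ranked from 2 to 5 for all members, cluster 7 ranked 1 for Igfbpl1 and Cd24a but 8 for Dcx and for Sox11, and cluster 8 ranked 3 for Sox11, Sox4 and Igfbpl1 but 10 for Dcx. Cluster 15, first for Dcx, ranked 19 for Sox4 and 16 for Cd24a, and had a mean rank of 10.2.

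**Figure D3:**
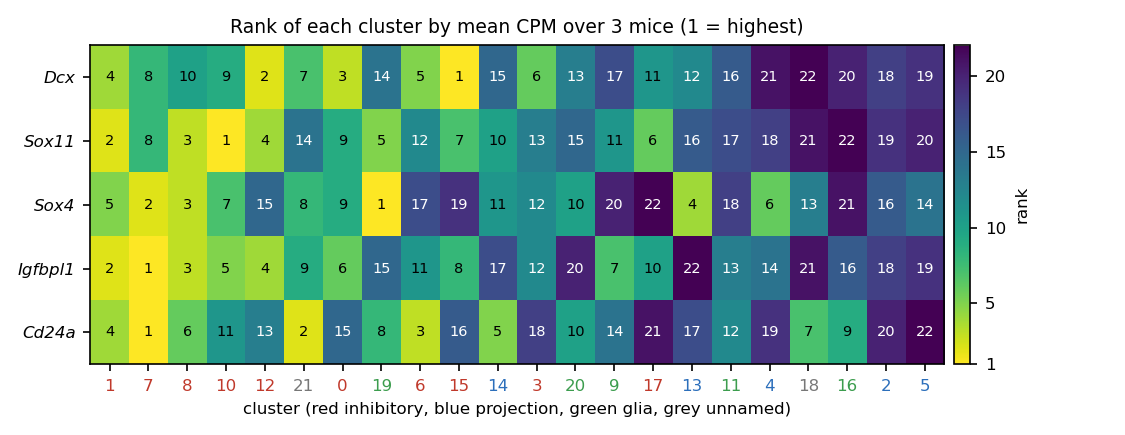
Rank of each of the 22 clusters (columns, ordered by mean rank) by mean CPM over 3 mice for each member (rows), where 1 is the highest. Clusters 1, 7 and 8 lead, and the rows differ in their first places, which are clusters 15, 12 and 0 for Dcx and clusters 19, 7 and 8 for Sox4.

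Over the 10 inhibitory clusters the members did not follow a common order. Pearson's r of log2(CPM + 1) was 0.79 between Sox4 and Cd24a, 0.78 between Sox4 and Igfbpl1 and 0.75 between Igfbpl1 and Cd24a. It was -0.37 between Dcx and Sox11 and 0.043 between Dcx and Igfbpl1. These values are descriptions over 10 points that share the libraries of the same 3 mice, and cluster 7 is the highest of the 10 for Sox4, Igfbpl1 and Cd24a.

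The share of nuclei with a UMI was compared after thinning each nucleus to 2000 UMIs, which left out 97 of 31703 nuclei. Igfbpl1 was found in 15.8% ± 0.933 (SD, n = 3) of nuclei of cluster 7, 10.9% ± 5.15 of cluster 1 and 5.64% ± 1.59 of cluster 8, against 0.680% in the microglia-like and 1.10% in the oligodendrocyte-like cluster. The median nucleus had 4498, 8006.5, 7376, 3405 and 5441 UMIs in these clusters before thinning. Cd24a was found in 7.75% ± 0.976 of nuclei of cluster 7 and 2.81% ± 2.51 of cluster 1, against 0.680% and 0.161% in the same glial clusters. Sox11 was found in 18.2% ± 2.63 of cluster 10 (median 5778 UMIs) and 15.1% ± 4.35 of cluster 1, against 5.02% and 1.13%. Dcx was found in 67.6% ± 4.27 of cluster 15 (median 8471 UMIs) and 54.0% ± 2.02 of cluster 1, against 11.2% and 9.37%. Sox4 was found in 37.5% ± 3.62 of cluster 7 and 29.2% ± 19.0 of the OPC-like cluster (median 7811 UMIs), against 11.6% and 6.53%. Without thinning the shares were 24.1% (Igfbpl1, cluster 7), 14.4% (Cd24a, cluster 7), 34.2% (Sox11, cluster 10), 94.3% (Dcx, cluster 15) and 70.6% (Sox4, OPC-like cluster). After thinning, nuclei with UMIs of at least 3 of the 5 members made up 12.9%, 4.30% and 5.39% of cluster 1 in mice 1, 2 and 3, 6.75%, 6.47% and 5.76% of cluster 7 and 3.59%, 4.70% and 2.30% of cluster 8. In the other inhibitory clusters this share did not exceed 2.99%.

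Within cluster 1, 9 of the 10 pairs of members were found together in the same nuclei more often in all 3 mice. The count was 4 in cluster 8, 3 in cluster 7, 1 in cluster 0 and 0 in the 6 other inhibitory clusters, and the share among pairs of other genes was not computed. The other pair of cluster 1 was Dcx and Sox11, where nuclei with Dcx had Sox11 in 18.9%, 13.5% and 13.9% of cases in mice 1, 2 and 3 and nuclei without had it in 21.3%, 13.9% and 8.94%. After thinning, which holds for all these shares, nuclei with a UMI of Igfbpl1 had one of Cd24a in 29.5%, 10.5% and 6.12% of cases in mice 1, 2 and 3, and nuclei without had it in 0.913%, 0.534% and 1.02%. For Sox11 the shares were 46.2%, 28.7% and 26.5% with Igfbpl1 against 14.8%, 12.6% and 10.2% without. Sox4 was found in 55.3%, 40.5% and 46.9% with Igfbpl1 against 22.5%, 17.96% and 17.6% without. In cluster 7, 2 of the 10 pairs were found together less often in all 3 mice, as were 2 in cluster 3 and 1 each in clusters 6, 10 and 17. The shares of Cd24a in cluster 7 were 16.7%, 21.7% and 11.1% with Igfbpl1 against 4.76%, 6.23% and 7.25% without. Dcx was found in 45.2%, 42.7% and 50% with Igfbpl1 against 44.8%, 44.2% and 39.6% without. The pairs of cluster 7 found less often together were Dcx with Sox4 and Dcx with Cd24a. Nuclei with Dcx had Cd24a there in 5.31%, 5.58% and 3% of cases against 7.91%, 11.1% and 11.2% without.

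Cluster 1 was therefore divided by Igfbpl1, a split chosen after the levels had been seen and described without a test. Nuclei with at least 2 UMIs of Igfbpl1 numbered 150, 303 and 67 in mice 1, 2 and 3, or 18.9%, 8.85% and 12.4% of the cluster, and were set against nuclei with none. Of 9818 genes with 10 CPM or more in either set, 33.0% were higher in all 3 mice and 16.3% lower in all 3. A gene could enter through the set where it is high, as 636 genes did through the nuclei with Igfbpl1 alone, Cd24a among them, and 266 through the nuclei without. Of 8916 genes with 10 CPM or more in both sets, a filter added after seeing the data, 31.7% were higher and 16.1% lower. Sox11, Sox4 and Dcx reached that level in both sets and were higher in all 3 mice. Sox11 stood at 264, 135 and 189 CPM in the nuclei with Igfbpl1 and at 82.9, 72.0 and 65.0 CPM in those without. Sox4 stood at 368, 238 and 247 against 123, 103 and 104 CPM. Cd24a stood at 101, 33.8 and 32.8 against 6.58, 2.38 and 2.23 CPM, and Dcx at 555, 519 and 515 against 403, 433 and 460 CPM. The sets did not overlap for any of the 4, and the share of all genes without such overlap was not computed. Depth moved with the split in mouse 1, where the nuclei with Igfbpl1 had a median of 4887 UMIs against 7537.5, but less in mouse 2 (7731 against 7982) and mouse 3 (9224 against 9064), and its part in the result was not tested.

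**Figure D4:**
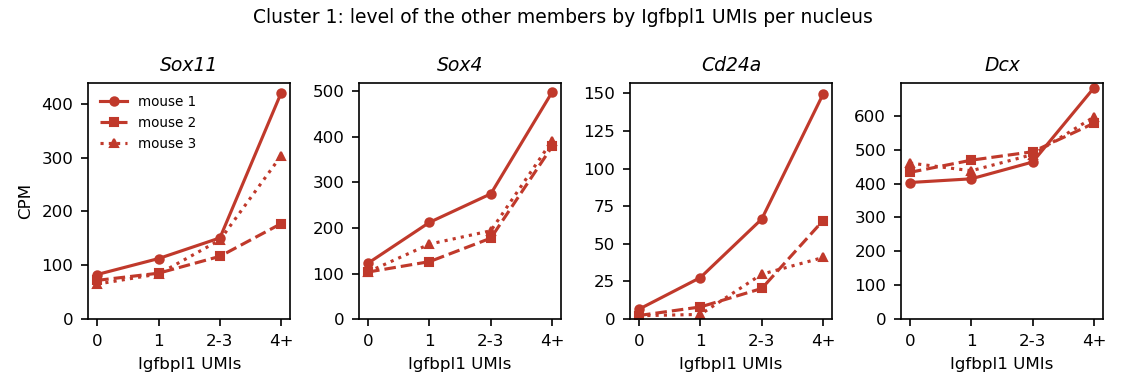
CPM of Sox11, Sox4, Cd24a and Dcx (1 panel each) in nuclei of cluster 1 with 0, 1, 2 to 3 and 4 or more UMIs of Igfbpl1, with 1 line per mouse. Sox11 stood at 82.9, 112, 151 and 421 CPM over the 4 bins in mouse 1, at 72.0, 85.3, 117 and 178 CPM in mouse 2 and at 65.0, 83.8, 147 and 304 CPM in mouse 3.

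The lists differed in direction in this split. Of 23 other immature neuron and migration genes, 20 were higher in all 3 mice and 1 lower, Dclk2, a doublecortin-like kinase. Of the 21 with 10 CPM or more in both sets, 18 were higher and 1 lower. St8sia2, which makes the polysialic acid of migrating neuroblasts, stood at 52.2, 25.2 and 35.9 CPM against 2.88, 1.67 and 3.34 CPM. Of 16 transcription factors of OB neuroblasts, 14 were higher and none was lower, with 14 of 15 higher at 10 CPM or more in both sets, and Etv1 stood at 330, 220 and 245 against 50.4, 37.7 and 32.5 CPM. Of 22 mature neuron genes, all at 10 CPM or more in both sets, 14 were lower in all 3 mice and 3 higher (Map2, Mapt and Camk4). By the log2 ratio of CPM + 5, in the mouse where it was smallest, the leading genes were Nfib, a nuclear factor I gene, at 604, 291 and 437 against 59.0, 42.2 and 40.8 CPM, Vcan, a proteoglycan of the extracellular matrix, at 119, 66.8 and 103 against 8.64, 6.74 and 5.34 CPM, and Prokr2, a receptor for prokineticins, at 104, 68.3 and 82.7 against 12.5, 8.65 and 4.90 CPM. St8sia2, Vcan and Prokr2 had means below 10 CPM without Igfbpl1 and entered through the nuclei with Igfbpl1 alone. The other lists had few genes at that level in both sets. Of 5 beta tubulins 4 were higher and none lower, of 5 other Sox genes 2 were higher and none lower, of 2 cycling and progenitor genes both were higher, and of 2 other genes of the doublecortin family none was higher and 1 lower.

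**Figure D5:**
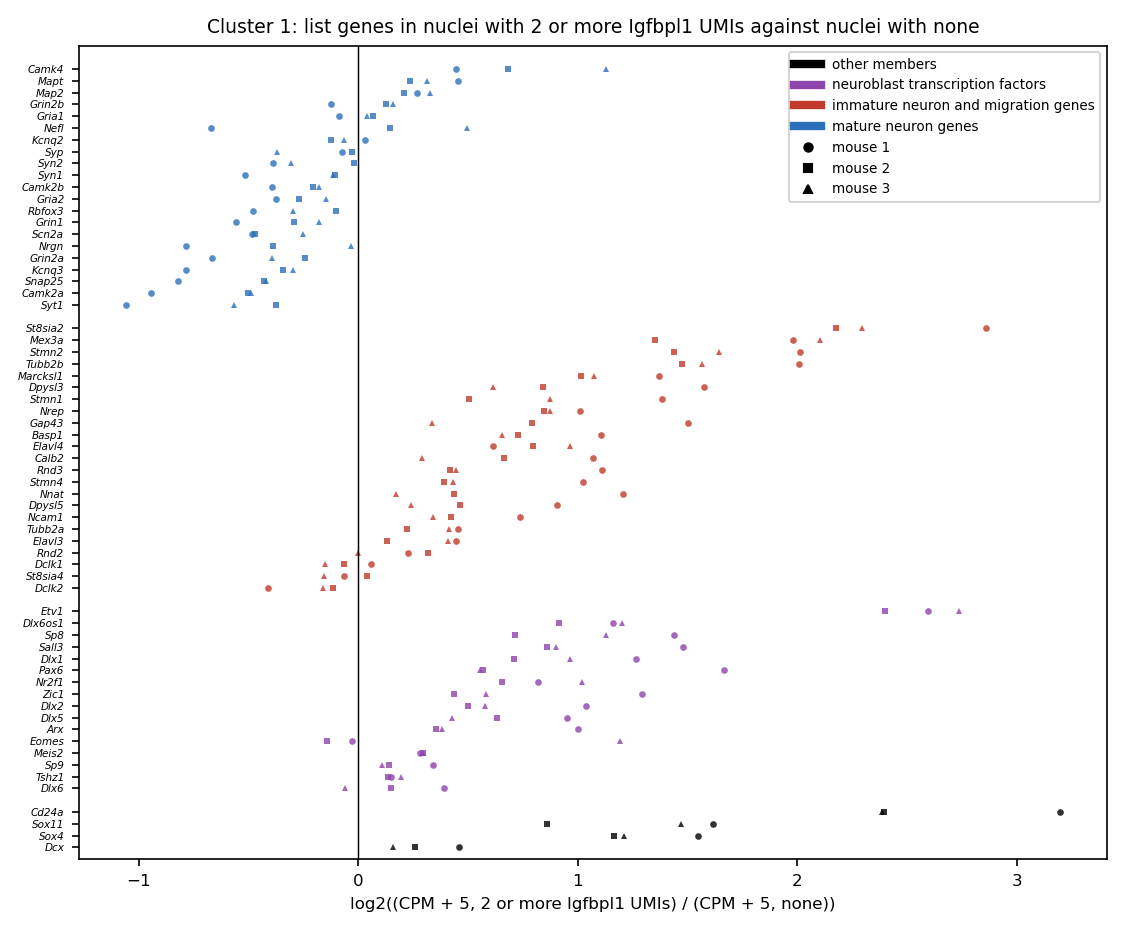
Log2 ratio of CPM + 5 between nuclei of cluster 1 with 2 or more UMIs of Igfbpl1 and nuclei with none, for the other members (black), neuroblast transcription factors (purple), immature neuron genes (red) and mature neuron genes (blue), with 1 symbol per mouse. 14 mature neuron genes lie below 0 in all 3 mice, and 20 of 23 immature neuron genes lie above 0.

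Markers of some other cells moved with the split too. Of 6 astrocyte markers 4 were higher in all 3 mice, with a summed level of 226 to 306 CPM against 101 to 107 CPM. Most of that difference lay in Slc1a3, a glutamate transporter, at 201, 143 and 165 against 43.4, 39.1 and 48.3 CPM, whereas Aqp4 and Aldoc were not higher in all 3 mice. Of 5 OPC markers only Vcan was higher in all 3 mice, the summed level was 69.5 to 127 against 6.68 to 14.2 CPM, and Cspg4, a defining OPC marker, was at 0 with Igfbpl1 and at no more than 0.206 CPM without it, too little to compare. Of 6 microglia markers 1 was higher and 1 lower, with sums of 51.5 to 60.5 against 49.8 to 60.1 CPM. The 3 markers of cycling cells were too low to compare, with sums of 0 to 3.12 against 2.88 to 4.68 CPM. The part of astrocyte RNA in the result was not tested.

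The same split was made in 3 other inhibitory clusters. In cluster 7, with 40, 125 and 35 such nuclei, 3 of 4 members were higher in all 3 mice, against 15.2% of all genes higher and 15.1% lower. Immature neuron genes were higher in 8 of 22 cases and lower in 2, neuroblast transcription factors higher in 5 of 16 and lower in 1, and mature neuron genes higher in 3 of 23 and lower in 8. Astrocyte markers had summed levels of 499 to 721 CPM in these nuclei of cluster 7 and of 611 to 839 CPM in those without Igfbpl1, and their part in the level of the members in cluster 7 was not tested. Gpc5 was lower with Igfbpl1 there, at 17.0, 29.5 and 39.9 against 355, 305 and 586 CPM. So was Vip, at 0, 13.4 and 0 against 49.5, 98.5 and 34.8 CPM, and the part of these genes was not tested. In cluster 8, with 13, 84 and 19 such nuclei, 3 of 4 members were higher (Dcx, Sox11 and Sox4), against 17.4% of genes higher and 17.1% lower. Of 21 immature neuron genes 11 were higher and 3 lower there. Of 16 neuroblast transcription factors 4 were higher and 1 lower, and of 23 mature neuron genes 1 was higher and 6 were lower. Other genes of cell identity moved with the split in cluster 8. Fam19a1, which leads the cluster, stood at 0, 5.38 and 5.45 CPM in the nuclei with Igfbpl1 and at 1368, 190 and 2686 CPM in those without. Projection neuron markers were lower in 5 of 7 cases, with sums of 117 to 119.9 against 134 to 246 CPM, and astrocyte markers had sums of 70.1 to 109 against 93.0 to 121 CPM. Their part in the result was not tested. In cluster 0, with 38, 147 and 28 such nuclei, 2 of 3 members were higher (Sox11 and Sox4) and 1 lower (Dcx). Of all genes 16.9% were higher and 15.1% lower, and 9 of 20 immature neuron genes were higher and 1 lower. Of 15 neuroblast transcription factors 10 were higher and none lower there, and of 23 mature neuron genes 8 were higher and 8 lower. Astrocyte markers of cluster 0 had sums of 133, 104 and 102 CPM in mice 1, 2 and 3 with Igfbpl1 and of 72.2, 80.4 and 58.7 CPM without, with 2 of 6 higher and 1 lower in all 3 mice, and their part was not tested. Genes counted in these 3 clusters had 10 CPM or more in either set, so that a gene could enter through its higher set. Clusters 7, 8 and 0 are given in that order for genes at that level in both sets. Immature neuron genes were then higher in 8 of 20, 11 of 20 and 9 of 19 cases and lower in 2, 3 and 1. Neuroblast transcription factors were higher in 5 of 15, 4 of 12 and 10 of 15 and lower in 1, 1 and 0. Of all genes 15.6%, 18.3% and 16.4% were higher and 13.6%, 14.5% and 14.2% lower. The other lists held 6 genes or fewer in each of these clusters. The number of such nuclei differs between these clusters, and the difference between the clusters was not tested.

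Other genes of the pathway were read from fixed lists in the contrasts between whole clusters. In inhibitory against projection clusters, 16 of 20 neuroblast transcription factors were higher and 2 lower, against 7.09% and 12.7% of all genes. Dlx6os1 (log2 difference 3.59), Meis2 (3.25) and Pax6 (3.12) led, and Tbr1 (-3.62) and Eomes (-3.46), factors of glutamatergic neurons, were the 2 lower. Dlx6os1 is a noncoding RNA that this list counts with the transcription factors. Dlx6os1, Dlx1, Meis2, Eomes and Tbr1 had also served to name the clusters. The median of the list was 2.45, against -0.064 over all genes. Of 26 other immature neuron and migration genes, 4 were higher (St8sia4 2.78, Rnd3 1.76, Tubb2b 1.205 and Marcksl1 1.201) and 5 lower, among them Elavl4 (-3.25), Neurod2 (-2.03) and Gap43 (-1.84). Of 24 mature neuron genes, 8 were higher and 1 lower, those higher led by Rbfox3 (2.73), Grin2a (2.27) and Camk4 (2.18). Sox2 (2.30) and Egfr (1.74) of 12 cycling and progenitor genes were higher, Sox2 and Sox1 (1.99) of 10 other Sox genes were higher and Sox5 (-2.08) lower, and 1 of 6 beta tubulins was higher, Tubb2b. In the doublecortin family 4 of 6 genes passed the adjusted p, all with log2 differences under 1.

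The leading clusters by mean rank, 1 and 7, were each read against the mean of the other clusters, and the difference between them was not tested. In cluster 1 against the other clusters, where 7.56% of all genes were called higher and 4.83% lower, 8 of 26 immature neuron genes were higher, led by St8sia2 (2.40), Draxin (2.12) and Nrep (1.78), and Elavl4 was lower (-1.91). At the same time 11 of 24 mature neuron genes were higher, led by Camk4 (3.11), Nrgn (2.61) and Rbfox3 (2.31), a nuclear marker of mature neurons, and 1 was lower. In cluster 7, where 5.66% of all genes were called higher and 3.79% lower, 5 of 26 immature neuron genes were higher, led by Calb2 (4.41), Mex3a (2.29) and St8sia2 (2.09), and Dpysl3 was lower (-1.27). Of the mature neuron genes Gria1 was higher (1.69) there, and Kcnq3 (-2.46) and Syt1 (-1.01) were lower. Of 20 neuroblast transcription factors 11 were higher in cluster 7, led by Zic2 (5.25), Zic1 (4.27) and Etv1 (2.59), and none was lower. In cluster 1, 8 were higher, led by Sp9 (1.85), Meis2 (1.84) and Tshz1 (1.82), and 3 lower, Nr2f2 (-1.26), Tbr1 (-1.26) and Eomes (-1.10). Such counts were not particular to clusters 1 and 7. Of the 20 factors 14 were higher and 3 lower in cluster 0, and 12 higher and 3 lower in cluster 3. Of the 26 immature neuron genes 6 were higher in the ensheathing-glia-like cluster (2 lower) and 6 in the OPC-like cluster (3 lower). Projection clusters 5 and 13 had 5 higher each, with 7 and 2 lower. Calb2 encodes calretinin, a calcium-binding protein of a class of periglomerular and granule cells. Cluster 15, the highest for Dcx, had Prox1 (6.22) and Calb2 (3.13) as the leading immature neuron genes, with 4 of 26 higher and 7 lower, against 6.70% and 5.56% of all genes.

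The genes most like each member across the 22 clusters were found among 14718 genes by Pearson's r of log2(CPM + 1), a description over points that share libraries and depth. Nearest to Dcx were Gm42439 (r = 0.90), Rpp25 (0.86) and Auts2 (0.86). Nearest to Sox11 were Brinp2 (0.82), Gpm6a (0.82) and Camk4 (0.81). Nearest to Sox4 was Gm26735 (0.91), the lincRNA that overlaps it on the opposite strand, followed by Syt16 (0.75) and Igsf21 (0.74). Igfbpl1 was most like Cdca7 (0.82), Atrx (0.82) and Drp2 (0.80), and Cd24a most like A430033K04Rik (0.82), Prss35 (0.75) and Htr1f (0.74). Over all measured members the mean r was highest for Asphd2 (0.62), Slitrk4 (0.61), Runx1t1 (0.59), Nexmif (0.59), Cdca7l (0.59), Prr16 (0.59), E130307A14Rik (0.59), Ap4s1 (0.59), Atrx (0.58) and Pnmal1 (0.58).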

How the data were processed

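Nuclei were sorted from the OB of 3 mice and their RNA was counted by droplet sequencing (10x 3′ chemistry), 1 library per mouse. The deposited tables hold raw UMI counts per gene and barcode, made by the authors with Cell Ranger on mm10/GRCm38 (per the submitters' processing notes). Whether intronic reads were counted is not given in the sources used here. A deposited table lists the retained nuclei (1000 or more genes and no more than 5% of UMIs from mitochondrial genes) with the cluster that the authors assigned in Seurat. Of its numeric columns 7 were not used. The sort excluded doublets by light scatter, and no doublet caller was run here.

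Clusters were named from marker lists, a name needing 3 markers at 25% or more of the highest cluster. UMI counts were summed per cluster and mouse, and libraries of at least 10 nuclei (65 of 66) were fitted with edgeR 4.0.16 (TMM, filterByExpr, quasi-likelihood test, no covariate, R 4.3.3), with Benjamini-Hochberg adjustment over 17028 genes. A SE is the log2 difference divided by the square root of F. Calls need an adjusted p under 0.05 and, in contrasts, an absolute log2 difference above 1. Contrasts average log levels over clusters, and a gene with a cluster without any UMI has no usable value there, which held for 4763 of the genes tested (28%). The libraries of a mouse come from the same animal, so that a block for the mouse was tried among the alternatives, with DESeq2 1.42.0, library size, other filters and leaving out each mouse. Members, lists and tests were chosen with earlier results of these data known. All members were named, with the 3 most similar genes of each, the 10 most similar over all, and up to 3 list genes in each direction. The split by Igfbpl1, its genes and the examples within it were chosen after seeing the data. The tests were checked on simulated counts. Shares and levels carry the spread between mice only. 1 listed gene is not reported here.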

Additional observations from a re-analysis of the deposited data

How the results depend on the processing

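Counts of UMIs limit Cd24a and Igfbpl1 most, and the glial clusters hold few nuclei. All 5 members differed between clusters, and between inhibitory clusters, under each alternative run. The members called between inhibitory and projection clusters numbered 4 throughout, other than 3 without mouse 2. Between neuronal and glial clusters the count of 1 fell to 0 with library size alone and ranged from 0 to 3 with a mouse left out. Calls of single clusters, 37 in the main analysis, ranged from 30 to 34 with a mouse left out, and those lower fell from 17 to 8 without mouse 2. DESeq2 gave 40. With the mouse as a replicate block the counts were 5 and 5 for any difference, 4, 1 and 39, so that the pairing changed no count by over 1.5 times. The sign turned for Sox4 between inhibitory and projection clusters (0.0278 with library size alone, 0.262 with nuclei summed per class) and for Cd24a between neuronal and glial clusters (0.213 with at least 30 nuclei per library, and -0.248 to 1.08 with a mouse left out, 1.08 without mouse 2 and 0.105 without mouse 3). The highest cluster of Sox4 moved from 19 to 7 in nuclei with at least 1500 genes and after thinning, and was 7 or 19 with a mouse left out. Shares moved with depth by construction. Thinned to 1000 UMIs they were 46.2% (Dcx, cluster 15), 11.3% (Sox11, cluster 10), 9.61% (Igfbpl1, cluster 7) and 3.63% (Cd24a, cluster 7). Without thinning they were 94.3%, 34.2%, 24.1% and 14.4%, and 70.6% for Sox4 in cluster 19. The cause of these changes was not tested.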
